A study of Mus musculus with 9 samples.

Results

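MyoD-tdTomato high cells, muscle stem cells (MuSCs) that had been cultured for 5 days and sorted for bright MyoD reporter fluorescence, were compared with QSCs, MuSCs taken straight from muscle and not cultured. The comparison used 6 of the 9 RNA sequencing libraries of the study, 3 of MyoD-tdTomato high cells and 3 of QSCs, and every gene with at least 1 count in all 9 libraries, which was 12614 of the 25655 genes in the table. MyoD-tdTomato high cells came from MyoD-KI mice, a C57BL/6 line in which tdTomato follows the MyoD coding sequence after a P2A peptide, so that the MyoD promoter drives the reporter. The library labels name the line MyoD-KI and the study's text writes MyoD KI/+ for it. The study used MyoD-KI mice of both sexes unless stated and isolated MuSCs at 10 to 16 weeks of age from hindlimb muscle with beads against integrin α7, grew them in medium with fetal bovine serum and Ultroser G, and parted them by FACS. QSCs came from leg muscle of 15 to 16-week-old male Pax7-YFP mice that carry YFP on both *Pax7* alleles. Whether beads or YFP fluorescence picked the QSCs is not given in the sources used here. Culture, the sort, the reporter line, the sex of the mice and the isolation therefore differ between the groups at once and cannot be told apart. According to the methods, libraries within a group were technical replicates, and a p-value here therefore reflects library-to-library scatter that may contain no biological variation. The levels of Y-linked genes, given further on, differ between MyoD-tdTomato high replicate 1 and the other 2 libraries of its group, which goes against 3 repeats of 1 sample.

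MuSCs, or satellite cells, lie between a muscle fibre and its basal lamina and rest outside the cell cycle, marked by the transcription factor PAX7. Injury or culture activates them: they divide as myoblasts, raise MYOD, and then raise myogenin, leave the cycle and fuse into multinucleated fibres that build sarcomeres. Digestion of muscle is itself known to switch on immediate early genes in freshly isolated MuSCs.

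Levels are given as CPM (counts per 1000000, scaled with TMM factors), and genes were called when edgeR's quasi-likelihood test gave an adjusted p below 0.01 with a change of more than 1.5-fold either way. Positive log2 fold changes mean higher levels in MyoD-tdTomato high cells. The SE beside a log2 fold change is its absolute size divided by the square root of the test's F statistic. It is not estimated directly, and for genes with few counts it may understate the imprecision. In all, 51.1% of the 12614 genes  were called, 3107 higher (24.6%) and 3333 lower (26.4%), with a median log2 fold change of -0.02 over all genes. The shares of 24.6% and 26.4% are the background for the counts of every gene list below. On the counts the falls were larger than the rises. The floor also differed between the groups. Single chemosensory receptor genes, which neither group should express, had a 95th percentile of 1.77 to 7.44 CPM in QSCs libraries. In MyoD-tdTomato high libraries it was 0.0393 to 0.0782 CPM. How far this floor limits the size of rises was not tested. Past 4-fold there were 838 genes higher and 1658 lower, past 16-fold 94 and 541, and past 64-fold 0 and 160. Since the counts were summed over bulk RNA, fewer cells of a type and less RNA per cell cannot be told apart in any of these values.

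Total counts were 24643176 to 26782872 in MyoD-tdTomato high and 7514633 to 18077031 in QSCs libraries. The first principal component of the 6 libraries held 82.4% of the variance and separated the groups, with scores of -104.6 to -101.5 in MyoD-tdTomato high and 98.7 to 107.6 in QSCs. The second held 9.63% and set QSCs replicate 2, the shallowest library, at -70.3, against 33.9 and 35.8 for the other QSCs libraries. Without that library 3396 genes were called higher and 3507 lower. MyoD-tdTomato high replicate 1 also stood apart in its Y-linked genes (given below), and without it 2807 genes were higher and 2886 lower. On TPM (transcripts per 1000000, which adjusts counts for transcript length within a library) the 3 MyoD-tdTomato high libraries stood higher against QSCs by a shift of 0.66 on the log2 scale, the same for every gene. There, with limma on log2(TPM + 1), the median log2 fold change was 0.59, 5750 genes were called higher and 1799 lower, and 76.2% of called genes were higher, against 48.2% on the counts. All 1799 genes lower on TPM were also lower on the counts, and no gene was called in opposite directions.

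**Figure D1:**
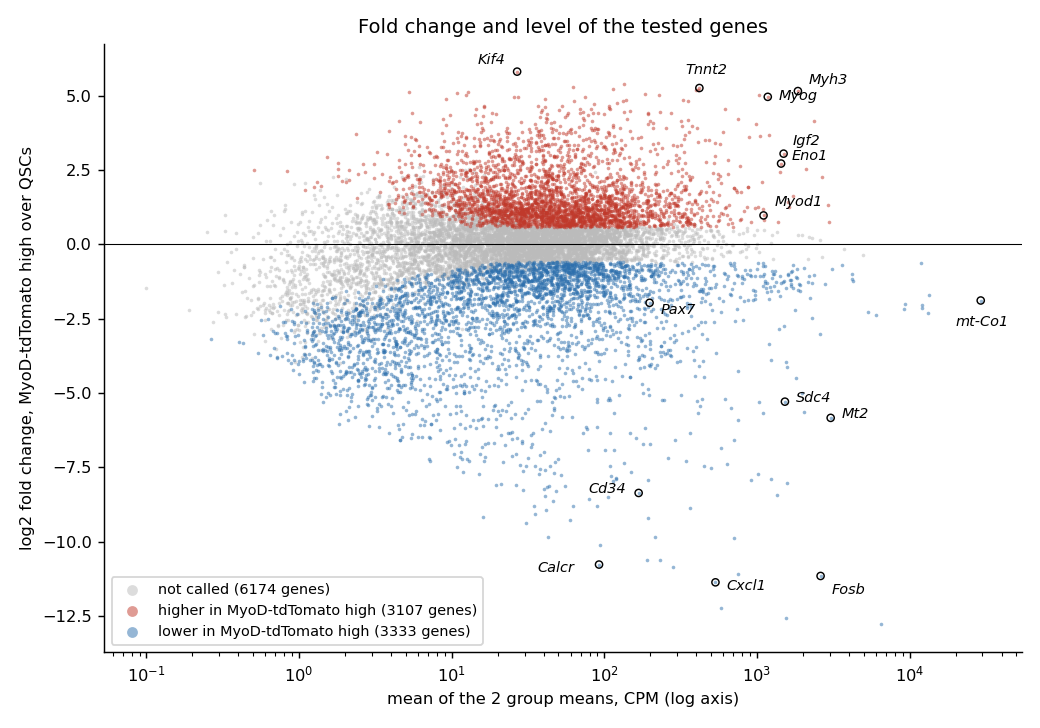
Each point is a gene, by its level (CPM averaged over both groups, log axis) and its log2 fold change, MyoD-tdTomato high over QSCs. Red points (3107 genes) were called higher, blue points (3333 genes) lower and grey points were not called; the blue points reach below -10 while the red ones stay under 6, and 15 genes that the text describes are circled.

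Among the muscle regulatory factors, MyoD-tdTomato high cells were higher in *Myod1* and *Myog* and lower in *Pax7*. *Myod1*, the factor that commits cells to the muscle lineage, was at 1486, 1446 and 1456 CPM in MyoD-tdTomato high libraries, against 802, 534 and 897 CPM in QSCs (log2 fold change 0.97, SE 0.16, edgeR adjusted p = 0.000358). Its own reporter was the basis of the sort, so this difference is no independent result. The MyoD-tdTomato high values spread less (SD 20.7 CPM) than those of QSCs (SD 188 CPM). *Myog*, or myogenin, which starts terminal differentiation (chr1:134217727-134220286 in GRCm39), was at 2953, 1539.8 and 2347 CPM in MyoD-tdTomato high libraries, against 56.9, 79.9 and 83.1 CPM in QSCs (log2 fold change 4.96, SE 0.43, edgeR adjusted p = 3.13e-06). The groups do not overlap for myogenin, although the MyoD-tdTomato high libraries themselves spread widely (SD 709 CPM, n = 3). Per transcript length, *Myog* stood above *Myod1* in MyoD-tdTomato high cells, at 3594 ± 1019 TPM against 1863 ± 33.6 TPM, and below it in QSCs, at 73.6 ± 15.9 TPM against 591 ± 93.7 TPM (SD, n = 3). On these TPM levels the 2-sided exact permutation p between the groups was 0.1 for each gene, the smallest that 3 against 3 allows.

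*Pax7* (chr4:139464373-139560839) was at 67.2, 94.8 and 80.2 CPM in MyoD-tdTomato high libraries, against 364, 274 and 306 CPM in QSCs (log2 fold change -1.96, SE 0.15, edgeR adjusted p = 1.03e-06). QSCs mice carry YFP in both *Pax7* alleles, and the bearing of that change on the transcript was not tested. *Myf5*, the other early determination factor, did not differ by the call, at 91.7, 114 and 95.5 CPM in MyoD-tdTomato high, against 127, 144 and 121 CPM in QSCs (log2 fold change -0.38, SE 0.12, edgeR adjusted p = 0.0171); on log2(TPM + 1) its difference had the other sign (0.28). *Myf6*, or MRF4, a late factor, was low and uneven in QSCs, at 13.4, 6.75 and 8.95 CPM in MyoD-tdTomato high, against 0.818, 8.02 and 2.57 CPM in QSCs (log2 fold change 1.42, SE 0.64, edgeR adjusted p = 0.0714), and was not called. Without QSCs replicate 2 it was called higher (log2 fold change 2.54, edgeR adjusted p = 0.00169).

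Of 22 tested myogenic and MEF2 transcription factor genes, 13 were called higher and 4 lower in MyoD-tdTomato high cells, with a median log2 fold change of 0.97. *Mef2a*, a factor that works with MYOD on muscle promoters, was at 718, 465 and 611 CPM in MyoD-tdTomato high, against 116, 146 and 106 CPM in QSCs (log2 fold change 2.28, SE 0.17, edgeR adjusted p = 1.16e-06). *Smyd1*, a muscle methyltransferase needed for sarcomere assembly, was at 435, 280.0 and 383 CPM in MyoD-tdTomato high, against 8.93, 22.3 and 21.8 CPM in QSCs (log2 fold change 4.39, SE 0.35, edgeR adjusted p = 1.49e-06). In the other direction *Msc*, or musculin, a repressor that competes with MYOD for E-boxes, was nearly lost in culture, at 0.195, 0.245 and 0.236 CPM in MyoD-tdTomato high, against 83, 103 and 90.3 CPM in QSCs (log2 fold change -8.64, SE 0.39, edgeR adjusted p = 3.55e-08). *Id3*, an inhibitor of myogenic factors, was at 488, 607 and 506 CPM in MyoD-tdTomato high, against 890.0, 879 and 883 CPM in QSCs and was called lower on the counts, but not on log2(TPM + 1).

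Most genes of the contractile apparatus were higher in MyoD-tdTomato high cells. Of 47 tested sarcomere genes 36 were called higher and 5 lower in MyoD-tdTomato high cells (median log2 fold change 3.60), and the whole list summed to 45056, 23944 and 34108 CPM in MyoD-tdTomato high, against 7374, 7687 and 7932 CPM in QSCs. *Myh3*, embryonic myosin heavy chain (chr11:66969126-66993117 in GRCm39), was at 5024, 2241 and 3557 CPM in MyoD-tdTomato high libraries, against 84.6, 101 and 118 CPM in QSCs (log2 fold change 5.16, SE 0.59, edgeR adjusted p = 2.3e-05). *Tnnt2*, cardiac troponin T, was at 1065, 576 and 810.0 CPM in MyoD-tdTomato high, against 17.5, 32.7 and 15.1 CPM in QSCs (log2 fold change 5.26, SE 0.39, edgeR adjusted p = 8.91e-07). *Tnni1*, slow troponin I, was at 1049, 539.9 and 823 CPM in MyoD-tdTomato high, against 20, 27.7 and 18.4 CPM in QSCs (log2 fold change 5.20, SE 0.46, edgeR adjusted p = 3.21e-06). For all of these, MyoD-tdTomato high replicate 1 was highest and replicate 2 lowest. They are among the 15 largest rises, named only from genes whose groups do not overlap, so their separation is no result.

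*Actc1*, cardiac alpha actin, was at 2505, 1216 and 2267 CPM in MyoD-tdTomato high, against 47.9, 82 and 54.3 CPM in QSCs (log2 fold change 5.03, SE 0.54, edgeR adjusted p = 1.42e-05). *Acta1*, the skeletal alpha actin, was at 6038, 2900.2 and 4419 CPM in MyoD-tdTomato high, against 138, 316 and 301 CPM in QSCs (log2 fold change 4.15, SE 0.56, edgeR adjusted p = 7.71e-05). *Ttn*, the giant spring protein titin, was at 2952, 1650.2 and 2102 CPM in MyoD-tdTomato high, against 80.6, 231 and 219 CPM in QSCs. *Mypn*, or myopalladin of the Z-disc, and *Myom3*, an M-band protein, were also among the 15 largest rises (log2 fold changes 5.29 and 5.07). The myosin genes did not move together: *Myh7* and *Myh8*, the slow and the perinatal chains, rose with *Myh3* (log2 fold changes 4.41 and 4.22), while *Myh4*, the fast chain of adult type IIB fibres, was at 9.61, 3.5 and 4.87 CPM in MyoD-tdTomato high, against 31.1, 168 and 158 CPM in QSCs (log2 fold change -4.31, SE 0.67, edgeR adjusted p = 0.000206). *Pvalb*, the calcium buffer parvalbumin of adult fast fibres, had the same direction, at 2.03, 0.629 and 1.53 CPM in MyoD-tdTomato high, against 20.6, 37.6 and 51.9 CPM in QSCs (log2 fold change -4.72, SE 0.49, edgeR adjusted p = 1.05e-05). *Myoz1*, a Z-disc protein of fast fibres, fell too (log2 fold change -3.79), and *Ckm*, muscle creatine kinase, was not called (log2 fold change 0.49, edgeR adjusted p = 0.402). Which cells the fast-fibre transcripts in QSCs came from was not tested. *Des*, the intermediate filament desmin, was high in both groups, at 2905, 2072 and 2338 CPM in MyoD-tdTomato high, against 2363, 1946 and 2039 CPM in QSCs, and was called on log2(TPM + 1) only (0.86, limma adjusted p = 0.000419).

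Most tested genes of calcium release were higher as well. Of 19 tested genes of the calcium store and excitation-contraction coupling, 14 were called higher and 2 lower in MyoD-tdTomato high cells (median 3.30). *Jph2*, junctophilin of the membrane junctions, was at 681, 523 and 613 CPM in MyoD-tdTomato high, against 29, 36.3 and 49.3 CPM in QSCs (log2 fold change 3.99, SE 0.21, edgeR adjusted p = 9.89e-08). *Bin1*, which shapes T-tubules, was at 1171, 767 and 989 CPM in MyoD-tdTomato high, against 78.9, 93.5 and 105 CPM in QSCs (log2 fold change 3.40, SE 0.20, edgeR adjusted p = 1.84e-07). *Ryr3*, a ryanodine receptor isoform, went the other way, at 4.03, 2.31 and 2.51 CPM in MyoD-tdTomato high, against 62.1, 48.7 and 21.4 CPM in QSCs (log2 fold change -3.90, SE 0.45, edgeR adjusted p = 2.56e-05).

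Of 11 tested genes of the neuromuscular junction, 6 were called higher and 2 lower in MyoD-tdTomato high cells, beside 24.6% and 26.4% of all tested genes. The median was 1.13, or 0.798 without QSCs replicate 2. Of the acetylcholine receptor subunits, *Chrna1*, *Chrnd* and the fetal *Chrng* were higher in MyoD-tdTomato high cells. *Chrnd* was at 263, 174 and 226 CPM in MyoD-tdTomato high, against 4.98, 6.12 and 6.8 CPM in QSCs (log2 fold change 5.22, SE 0.22, edgeR adjusted p = 2.58e-08). *Chrng* was at 555, 325 and 445 CPM in MyoD-tdTomato high, against 8.11, 20.7 and 13.3 CPM in QSCs (log2 fold change 5.02, SE 0.40, edgeR adjusted p = 1.74e-06). *Chrnb1*, the beta subunit, was lower, at 227, 179 and 199 CPM in MyoD-tdTomato high, against 366, 406 and 377 CPM in QSCs, although not on log2(TPM + 1). The other gene called lower was *Agrn*, agrin, which gathers the receptors under the nerve, at 33.2, 41.4 and 36.4 CPM in MyoD-tdTomato high, against 67.8, 48.7 and 62.3 CPM in QSCs (log2 fold change -0.69, SE 0.19, edgeR adjusted p = 0.00765), a call that was lost on log2(TPM + 1), where the log2 difference was -0.02, and without any one library other than QSCs replicate 2. *Dok7*, which activates the receptor kinase MuSK, was at 271, 229.6 and 268 CPM in MyoD-tdTomato high, against 9.68, 13.1 and 12.5 CPM in QSCs.

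Among 17 tested myoblast fusion genes, 9 were called higher and 5 lower in MyoD-tdTomato high cells, beside 24.6% and 26.4% of all tested genes. *Mymk*, or myomaker, the membrane protein that fusion requires, was at 1013, 499 and 806 CPM in MyoD-tdTomato high, against 13.8, 23.3 and 26.5 CPM in QSCs (log2 fold change 5.20, SE 0.45, edgeR adjusted p = 2.83e-06). *Myof*, myoferlin, was at 380.2, 398 and 408 CPM in MyoD-tdTomato high, against 39.1, 53.1 and 52.3 CPM in QSCs. *Cdh2*, N-cadherin, was at 386, 308 and 379 CPM in MyoD-tdTomato high, against 28.7, 55.1 and 38.5 CPM in QSCs (log2 fold changes 3.04 and 3.15). *Nfatc2*, a factor that recruits cells to nascent myotubes, fell, at 3.36, 2.06 and 2.59 CPM in MyoD-tdTomato high, against 239, 211 and 193 CPM in QSCs (log2 fold change -6.33, SE 0.30, edgeR adjusted p = 4.87e-08). *Cdh15*, M-cadherin, was at similar levels, 393, 304 and 324 CPM in MyoD-tdTomato high, against 417, 458 and 469 CPM in QSCs, and was not called (log2 fold change -0.40, edgeR adjusted p = 0.11). Its difference had the opposite sign on log2(TPM + 1) (0.26).

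As examples of promoters of muscle genes, chosen because each holds 2 E-boxes, the RefSeq promoter windows (250 bases before to 50 after the start, build GRCm38.p6, read 5′ to 3′ on the gene's strand) of *Tnnt2* (chr1:135836084-135836383, plus strand) and *Chrng* (chr1:87205561-87205860, plus strand) are printed here, both among the 15 largest rises. Capitals mark CAGCTG, the E-box letters that MYOD and myogenin prefer, which read the same on both strands.
Tnnt2: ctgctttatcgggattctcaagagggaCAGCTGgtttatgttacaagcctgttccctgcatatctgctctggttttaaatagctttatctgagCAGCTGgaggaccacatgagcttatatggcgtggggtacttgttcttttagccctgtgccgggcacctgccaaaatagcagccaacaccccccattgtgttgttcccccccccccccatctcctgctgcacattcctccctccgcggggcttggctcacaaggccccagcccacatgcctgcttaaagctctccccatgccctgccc
Chrng: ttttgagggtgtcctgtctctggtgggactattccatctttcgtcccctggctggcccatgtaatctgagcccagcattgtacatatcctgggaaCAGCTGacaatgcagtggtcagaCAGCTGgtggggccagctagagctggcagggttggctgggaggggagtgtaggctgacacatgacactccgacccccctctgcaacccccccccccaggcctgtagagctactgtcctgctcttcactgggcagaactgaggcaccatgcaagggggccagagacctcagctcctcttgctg
Each window holds CAGCTG at 2 places. Of all 27025 promoters in the table, 16.1% hold it. Only 37 of the 47 tested sarcomere genes had a window (78.7%), under 80%, so no share is read for that list. A match is a description of the letters and not a site of binding.

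**Figure D2:**
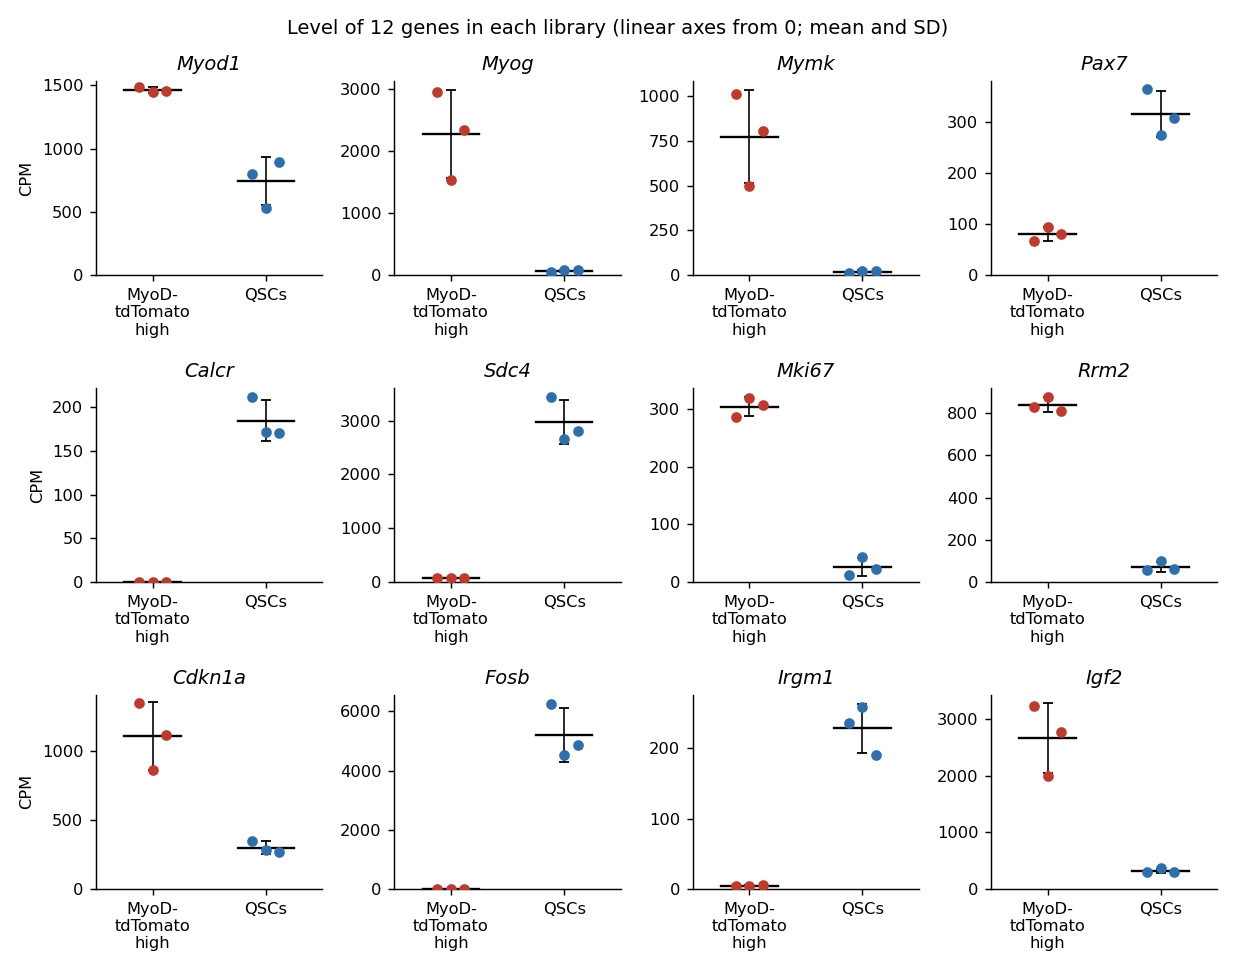
CPM of 12 genes in each library (linear axes from 0), MyoD-tdTomato high on the left in red and QSCs on the right in blue; points are libraries in order of replicate number, the long bar is the mean and the error bar the SD (n = 3). In each panel the 3 libraries of one group lie wholly above those of the other. The largest rises and falls were named only from genes whose groups do not overlap. For panel genes taken from them, this separation is therefore no result. The share of all tested genes that separate in this way is not given here.

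Genes of the resting state were lower in MyoD-tdTomato high cells. Of the 12 quiescence genes that the study names, 11 were called lower and 0 higher (median log2 fold change -2.71). The list was taken from the study, which shows these genes for their direction, so it is not independent evidence of that direction. *Calcr*, the calcitonin receptor that holds MuSCs quiescent (chr6:3685680-3764714 in GRCm39), was at 0.0782, 0.14 and 0.0785 CPM in MyoD-tdTomato high libraries, against 211, 171 and 171 CPM in QSCs (log2 fold change -10.77, SE 0.35, edgeR adjusted p = 6.49e-09), and its 8 counts over 3 MyoD-tdTomato high libraries make the size of the fall imprecise. *Cd34*, a surface sialomucin of quiescent MuSCs, was at 0.977, 1.19 and 0.864 CPM in MyoD-tdTomato high, against 419.9, 275 and 309 CPM in QSCs (log2 fold change -8.36, SE 0.23, edgeR adjusted p = 4.01e-09). *Adgrf5*, an adhesion G protein-coupled receptor, was at 0.156, 0.28 and 0.353 CPM in MyoD-tdTomato high, against 93.7, 74.7 and 71.4 CPM in QSCs (log2 fold change -8.21, SE 0.31, edgeR adjusted p = 1.28e-08). *Arrb1*, an arrestin, was at 2.7, 4.13 and 3.77 CPM in MyoD-tdTomato high, against 59.8, 58.2 and 60.7 CPM in QSCs (log2 fold change -4.07, SE 0.20, edgeR adjusted p = 5.91e-08). *Spry1*, an inhibitor of growth factor signalling that MuSCs need to return to quiescence, was at 41.2, 31.4 and 33 CPM in MyoD-tdTomato high, against 277, 219.8 and 253 CPM in QSCs (log2 fold change -2.83, SE 0.21, edgeR adjusted p = 1.1e-06). *Col5a1* was short of the call, at 196, 149.9 and 169.9 CPM in MyoD-tdTomato high, against 269, 239.7 and 281 CPM in QSCs (log2 fold change -0.62, SE 0.19, edgeR adjusted p = 0.014), and was called lower with DESeq2 (adjusted p = 0.00357). On log2(TPM + 1) the sign of its difference was the opposite (0.04).

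A wider list of 48 tested genes of quiescent satellite cells was mixed: 11 rose and 28 fell (median -1.06). On log2(TPM + 1) 16 rose and 19 fell (median -0.40), so the lean towards falls depended on the scaling. *Sdc4*, the proteoglycan syndecan-4, was at 72.2, 84.2 and 71.8 CPM in MyoD-tdTomato high, against 3441, 2666 and 2810.2 CPM in QSCs (log2 fold change -5.29, SE 0.15, edgeR adjusted p = 4.01e-09). *Cd82*, a tetraspanin, was at 338, 248 and 275 CPM in MyoD-tdTomato high, against 847, 681 and 797 CPM in QSCs (log2 fold change -1.43, SE 0.21, edgeR adjusted p = 0.00012). *Vcam1*, an adhesion molecule used to sort MuSCs, was at 41.2, 47.1 and 44.7 CPM in MyoD-tdTomato high, against 408, 286 and 343 CPM in QSCs (log2 fold change -2.96, SE 0.14, edgeR adjusted p = 5.23e-08). Members that rose included *Ncam1*, which differentiating myoblasts also carry, at 1100.5, 762 and 908 CPM in MyoD-tdTomato high, against 185, 176 and 182 CPM in QSCs (log2 fold change 2.35, SE 0.15, edgeR adjusted p = 3.15e-07), *Gas6*, a ligand of TAM receptors, at 762, 659 and 723 CPM in MyoD-tdTomato high, against 217, 171 and 240.0 CPM in QSCs, and the imprinted gene *Peg3*, at 1801, 1677 and 1685 CPM in MyoD-tdTomato high, against 1024, 1126 and 894 CPM in QSCs. *Itga7*, the integrin whose antibody was used to isolate and gate MuSCs, was at 624, 541 and 574 CPM in MyoD-tdTomato high, against 326, 326 and 412 CPM in QSCs (log2 fold change 0.71, SE 0.14, edgeR adjusted p = 0.000887), and is no independent marker here. Summed over 8 genes of muscle stem cells and myoblasts in general, the groups were alike in size, at 5608, 4619 and 4912 CPM in MyoD-tdTomato high, against 5018, 4139 and 4758 CPM in QSCs. The single members were not alike: 2 were called higher and 3 lower, *Calcr* among the latter. That is 62.5% called, against 51.1% of all tested genes.

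In the Notch pathway, by which a signal from neighbouring cells keeps MuSCs quiescent, the receptors *Notch1*, *Notch2* and *Notch3* and the targets *Hey1* and *Heyl* fell while *Dll1* and *Jag2* rose. Of 21 tested genes, 5 were called higher and 12 lower in MyoD-tdTomato high cells (median -0.89), beside 24.6% and 26.4% of all tested genes. On log2(TPM + 1) 5 were higher and 7 lower (median -0.17). *Notch3* was at 169.6, 143 and 133 CPM in MyoD-tdTomato high, against 1031, 804 and 854 CPM in QSCs (log2 fold change -2.60, SE 0.23, edgeR adjusted p = 4.06e-06). *Heyl*, a target of the pathway, was at 41, 26.6 and 34.2 CPM in MyoD-tdTomato high, against 347, 231 and 302 CPM in QSCs (log2 fold change -3.11, SE 0.34, edgeR adjusted p = 1.75e-05). *Notch1* and *Notch2* were also called lower (log2 fold changes -1.15 and -0.99), but neither on log2(TPM + 1), where their adjusted p was 0.0709 and 0.127 with limma. Among the ligands, *Dll1* was at 121, 107 and 137 CPM in MyoD-tdTomato high, against 19.6, 24.2 and 13 CPM in QSCs (log2 fold change 2.70, SE 0.22, edgeR adjusted p = 1.67e-06). *Jag2* was at 179, 222 and 199 CPM in MyoD-tdTomato high, against 17, 9.62 and 17.5 CPM in QSCs (log2 fold change 3.74, SE 0.21, edgeR adjusted p = 1.32e-07). The third tested ligand gene, *Jag1*, named after its values were seen, was called lower (log2 fold change -3.22, edgeR adjusted p = 1.06e-07). *Hes6*, which opposes HES1 and is a gene of myogenic commitment, was at 1346, 1007 and 1192 CPM in MyoD-tdTomato high, against 37.6, 70.9 and 43.5 CPM in QSCs (log2 fold change 4.55, SE 0.24, edgeR adjusted p = 1.08e-07).

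Cell division genes rose almost as one. Of 52 tested genes of G2 and M phase, 49 were called higher and 1 lower in MyoD-tdTomato high cells (median log2 fold change 3.36), and the list summed to 4776, 5801 and 5529.5 CPM in MyoD-tdTomato high, against 678, 1071 and 856 CPM in QSCs. *Kif4*, a chromosome-bound kinesin, had the largest rise among the tested genes named here, at 44.7, 57.9 and 55 CPM in MyoD-tdTomato high libraries, against 0.545, 2.04 and 0.664 CPM in QSCs (log2 fold change 5.81, SE 0.35, edgeR adjusted p = 2.29e-07). *Mki67*, the proliferation marker Ki-67, was at 286, 319.8 and 308 CPM in MyoD-tdTomato high, against 12.5, 43.7 and 23 CPM in QSCs (log2 fold change 3.56, SE 0.35, edgeR adjusted p = 7.33e-06). *Ncapd2*, a condensin subunit, was at 217, 271 and 259 CPM in MyoD-tdTomato high, against 20.2, 28.3 and 25.1 CPM in QSCs (log2 fold change 3.35, SE 0.15, edgeR adjusted p = 2.87e-08). QSCs replicate 2 held the highest level of each among QSCs. *Pttg1*, securin, was the 1 member called lower, at 12.9, 12.1 and 14.4 CPM in MyoD-tdTomato high, against 35.3, 28.9 and 34 CPM in QSCs (log2 fold change -1.32, SE 0.17, edgeR adjusted p = 4.64e-05).

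Of 47 tested S phase and replication genes, 39 were called higher and 1 lower in MyoD-tdTomato high cells (median 1.92). *Rrm2*, the ribonucleotide reductase subunit that limits DNA precursors, was at 827, 877 and 810.0 CPM in MyoD-tdTomato high, against 55.4, 100.5 and 63.5 CPM in QSCs (log2 fold change 3.53, SE 0.21, edgeR adjusted p = 1.88e-07). *Dnmt1*, the maintenance DNA methyltransferase, was at 199, 258 and 233 CPM in MyoD-tdTomato high, against 42.2, 36.7 and 67.2 CPM in QSCs (log2 fold change 2.24, SE 0.21, edgeR adjusted p = 4.74e-06). *Pcna*, the replication clamp, was not called, at 159.9, 213 and 189.7 CPM in MyoD-tdTomato high, against 168, 175 and 212 CPM in QSCs (log2 fold change 0.02, SE 0.13, edgeR adjusted p = 0.917), and its sign turned under upper-quartile scaling (-0.08). On log2(TPM + 1) it was called higher (0.67, limma adjusted p = 0.000818). *Slbp*, which binds the stem-loop of histone mRNA, was called lower on the counts (log2 fold change -1.12) but not on log2(TPM + 1).

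Genes of cell cycle exit were split, with 8 of 18 higher and 6 lower, beside 24.6% and 26.4% of all tested genes. *Cdkn1a*, the inhibitor p21 that differentiating myoblasts raise, was at 1348, 861 and 1112 CPM in MyoD-tdTomato high, against 350.0, 282 and 264 CPM in QSCs (log2 fold change 1.89, SE 0.18, edgeR adjusted p = 6.03e-06). *Rb1*, the retinoblastoma protein, was at 157, 86.3 and 129 CPM in MyoD-tdTomato high, against 36.3, 33.1 and 34.5 CPM in QSCs (log2 fold change 1.84, SE 0.23, edgeR adjusted p = 4.09e-05). *Ccng1*, a p53 target, was at 309.9, 309 and 315 CPM in MyoD-tdTomato high, against 35.6, 63.3 and 44 CPM in QSCs. The antiproliferative genes *Btg1* and *Btg2* fell: *Btg2* was at 33.1, 32.8 and 30.9 CPM in MyoD-tdTomato high, against 1342, 1078 and 1179 CPM in QSCs (log2 fold change -5.22, SE 0.13, edgeR adjusted p = 3.33e-09), and it is also an immediate early gene. MyoD-tdTomato high libraries thus held more of both division genes and p21 than QSCs, and bulk RNA does not show whether the same cells carried both.

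The promoters of *Kif4* (chrX:100625815-100626114, plus strand) and *Top2a*, the topoisomerase of dividing cells (chr11:99024140-99024439, minus strand), are shown since the division genes moved together (RefSeq windows, GRCm38.p6). *Top2a* was at 296, 339 and 329 CPM in MyoD-tdTomato high, against 24.3, 38.4 and 17.4 CPM in QSCs. Capitals mark the CCAAT box, known to bind NF-Y, and the CHR element TTTGAA, known from genes that the DREAM complex silences in resting cells, each on either strand.
Kif4: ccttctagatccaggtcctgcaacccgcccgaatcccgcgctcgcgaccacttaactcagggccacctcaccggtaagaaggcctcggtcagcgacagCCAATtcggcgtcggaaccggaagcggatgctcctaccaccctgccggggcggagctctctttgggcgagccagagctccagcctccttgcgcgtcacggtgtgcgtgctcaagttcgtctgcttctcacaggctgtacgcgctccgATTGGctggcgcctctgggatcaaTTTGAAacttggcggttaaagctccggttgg
Top2a: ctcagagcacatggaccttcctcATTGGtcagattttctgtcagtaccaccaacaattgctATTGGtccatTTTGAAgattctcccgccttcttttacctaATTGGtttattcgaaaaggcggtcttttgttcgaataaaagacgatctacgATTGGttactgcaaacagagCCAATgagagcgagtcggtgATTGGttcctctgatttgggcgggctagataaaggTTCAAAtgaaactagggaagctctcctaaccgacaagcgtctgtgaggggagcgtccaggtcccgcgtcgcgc
Windows were found for 45 of the 52 tested G2 and M phase genes. Of these, 73.3% held TTTGAA, against 18.1% of all 27025 promoters, and 73.3% held CCAAT, against 37.9%. For the S phase genes, 60.5% of 38 windows held CCAAT and 10.5% TTTGAA. The E2F letters TTCCCGCC were in 7 of the 38 S phase windows (18.4%), 0% of the G2 and M phase windows and 2.24% of all promoters. All promoters include those of genes left out of the comparison, so they are not a matched reference for lists of tested genes. These shares describe letters only, and no test was run on them.

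Immediate early genes fell. All 27 tested members were called lower (median log2 fold change -5.14), and the list took 0.12% to 0.13% of the counts in MyoD-tdTomato high and 2.72% to 3.38% in QSCs libraries. *Fosb*, an AP-1 subunit, was at 2.27, 3.04 and 1.53 CPM in MyoD-tdTomato high libraries, against 6255, 4541 and 4859.6 CPM in QSCs (log2 fold change -11.15, SE 0.38, edgeR adjusted p = 7.5e-09). *Atf3*, a stress-induced factor, was at 1.95, 0.769 and 1.81 CPM in MyoD-tdTomato high, against 1488, 1357 and 1374 CPM in QSCs (log2 fold change -9.87, SE 0.38, edgeR adjusted p = 1.46e-08). *Egr1*, a serum-response zinc finger factor, was at 99.7, 62.2 and 78 CPM in MyoD-tdTomato high, against 4952, 3461 and 3633 CPM in QSCs (log2 fold change -5.65, SE 0.33, edgeR adjusted p = 1.8e-07). *Zfp36*, or tristetraprolin, which destabilises mRNAs and in MuSCs represses *Myod1* mRNA, was at 12.8, 11.3 and 11.6 CPM in MyoD-tdTomato high, against 3744, 2725 and 2864 CPM in QSCs (log2 fold change -8.03, SE 0.29, edgeR adjusted p = 1.08e-08). *Jund* was at 125, 112 and 120.1 CPM in MyoD-tdTomato high, against 4105, 3108 and 4322 CPM in QSCs. The MyoD-tdTomato high cells were detached with trypsin and sorted after culture, and the QSCs came straight from muscle, so the handling before RNA extraction cannot be told apart from the state of the cells.

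Of 31 tested chaperone genes, 13 were called higher and 6 lower in MyoD-tdTomato high cells (median 0.51), beside 24.6% and 26.4% of all tested genes. On log2(TPM + 1) 21 were higher and 5 lower. *Hspa1a* and *Hspa1b*, the inducible HSP70 genes, were lower: *Hspa1a* was at 14.1, 5.74 and 6.68 CPM in MyoD-tdTomato high, against 857, 547 and 742 CPM in QSCs (log2 fold change -6.34, SE 0.39, edgeR adjusted p = 2.41e-07). These near-identical genes may share reads. *Hspa5*, the endoplasmic reticulum chaperone BiP, was at 700.3, 676 and 711 CPM in MyoD-tdTomato high, against 4031, 3518 and 4133 CPM in QSCs (log2 fold change -2.48, SE 0.11, edgeR adjusted p = 2.56e-08). Constitutive and mitochondrial chaperones went the other way: *Hsp90ab1* (3710.1, 3641 and 3795 CPM in MyoD-tdTomato high, against 2289.5, 2175 and 2176 CPM in QSCs), *Hspd1* (log2 fold change 1.08) and *Hspa9* (log2 fold change 1.04) rose. The metallothioneins, which bind zinc and copper, fell steeply: *Mt2* was at 109.8, 109.9 and 94.5 CPM in MyoD-tdTomato high, against 6361, 5086 and 6474 CPM in QSCs (log2 fold change -5.83, SE 0.26, edgeR adjusted p = 3.59e-08). *Mt1* was at 141, 173 and 141 CPM in MyoD-tdTomato high, against 3589.9, 2712 and 4054 CPM in QSCs (log2 fold change -4.51, SE 0.20, edgeR adjusted p = 2.87e-08). *Gpx3*, a glutathione peroxidase, was at 790.0, 487 and 442 CPM in MyoD-tdTomato high, against 5408, 3949 and 4428 CPM in QSCs. *Cxcl1*, a chemokine that draws neutrophils, had the largest fall among the tested genes named here other than the predicted gene *Gm10800*, at 0.234, 0.629 and 0.314 CPM in MyoD-tdTomato high, against 1375, 946 and 885 CPM in QSCs (log2 fold change -11.36, SE 0.33, edgeR adjusted p = 4.56e-09).

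All 21 tested interferon response genes were also called lower (median log2 fold change -3.60), and the list summed to 235, 239.7 and 209 CPM in MyoD-tdTomato high, against 2376, 2025 and 2053 CPM in QSCs. *Irgm1*, an interferon-induced GTPase, was at 4.26, 4.34 and 4.99 CPM in MyoD-tdTomato high, against 236, 259 and 190.0 CPM in QSCs (log2 fold change -5.65, SE 0.17, edgeR adjusted p = 4.56e-09). *Irf1*, a transcription factor of the response, was at 4.89, 7.17 and 5.11 CPM in MyoD-tdTomato high, against 244, 208 and 189 CPM in QSCs (log2 fold change -5.22, SE 0.20, edgeR adjusted p = 1.28e-08). *Ifitm3*, an antiviral membrane protein, was at 55.3, 66.2 and 50.8 CPM in MyoD-tdTomato high, against 579.7, 463 and 545 CPM in QSCs (log2 fold change -3.20, SE 0.16, edgeR adjusted p = 5.91e-08). On log2(TPM + 1) 18 of the 21 remained lower and none rose. Antigen presentation went the same way: *B2m*, the light chain of MHC class I, was at 84.5, 85.4 and 81.2 CPM in MyoD-tdTomato high, against 452, 409 and 438 CPM in QSCs (log2 fold change -2.37, SE 0.09, edgeR adjusted p = 1.32e-08). *H2-K1*, a heavy chain, was at 47.4, 36.8 and 35.8 CPM in MyoD-tdTomato high, against 481, 289 and 510.2 CPM in QSCs (log2 fold change -3.42, SE 0.24, edgeR adjusted p = 5.62e-07). Of 13 tested genes of MHC class I presentation, 1 were called higher and 10 lower in MyoD-tdTomato high cells. Heavy chain genes resemble each other and reads may be split between them. Markers of immune cells were also higher in QSCs, as given below, and their part in these falls was not tested.

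The windows of *Irgm1* (chr11:48871371-48871670, minus strand) and *Ifitm3* (chr7:141010695-141010994, minus strand) are shown for the interferon genes (RefSeq, GRCm38.p6), with capitals for TTTC followed after any 2 bases by TTTC, on either strand, the core of the interferon-stimulated response element.
Irgm1: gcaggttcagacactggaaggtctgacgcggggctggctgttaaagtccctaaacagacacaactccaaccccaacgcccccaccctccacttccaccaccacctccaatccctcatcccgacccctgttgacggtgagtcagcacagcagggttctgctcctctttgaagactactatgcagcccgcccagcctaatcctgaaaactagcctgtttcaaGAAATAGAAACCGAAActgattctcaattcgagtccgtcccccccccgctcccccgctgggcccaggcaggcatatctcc
Ifitm3: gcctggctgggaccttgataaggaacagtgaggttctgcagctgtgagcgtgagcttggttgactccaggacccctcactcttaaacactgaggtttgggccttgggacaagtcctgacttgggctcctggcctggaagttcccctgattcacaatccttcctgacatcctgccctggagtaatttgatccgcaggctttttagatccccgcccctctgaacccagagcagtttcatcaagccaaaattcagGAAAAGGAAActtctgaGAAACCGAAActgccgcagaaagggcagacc
The 2 matches of *Irgm1* overlap, and those of *Ifitm3* do not. Of 18 windows of interferon response genes, 66.7% held these letters, against 3.49% of all promoters. No test was run on these shares, and all promoters again include those of genes left out of the comparison.

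**Figure D3:**
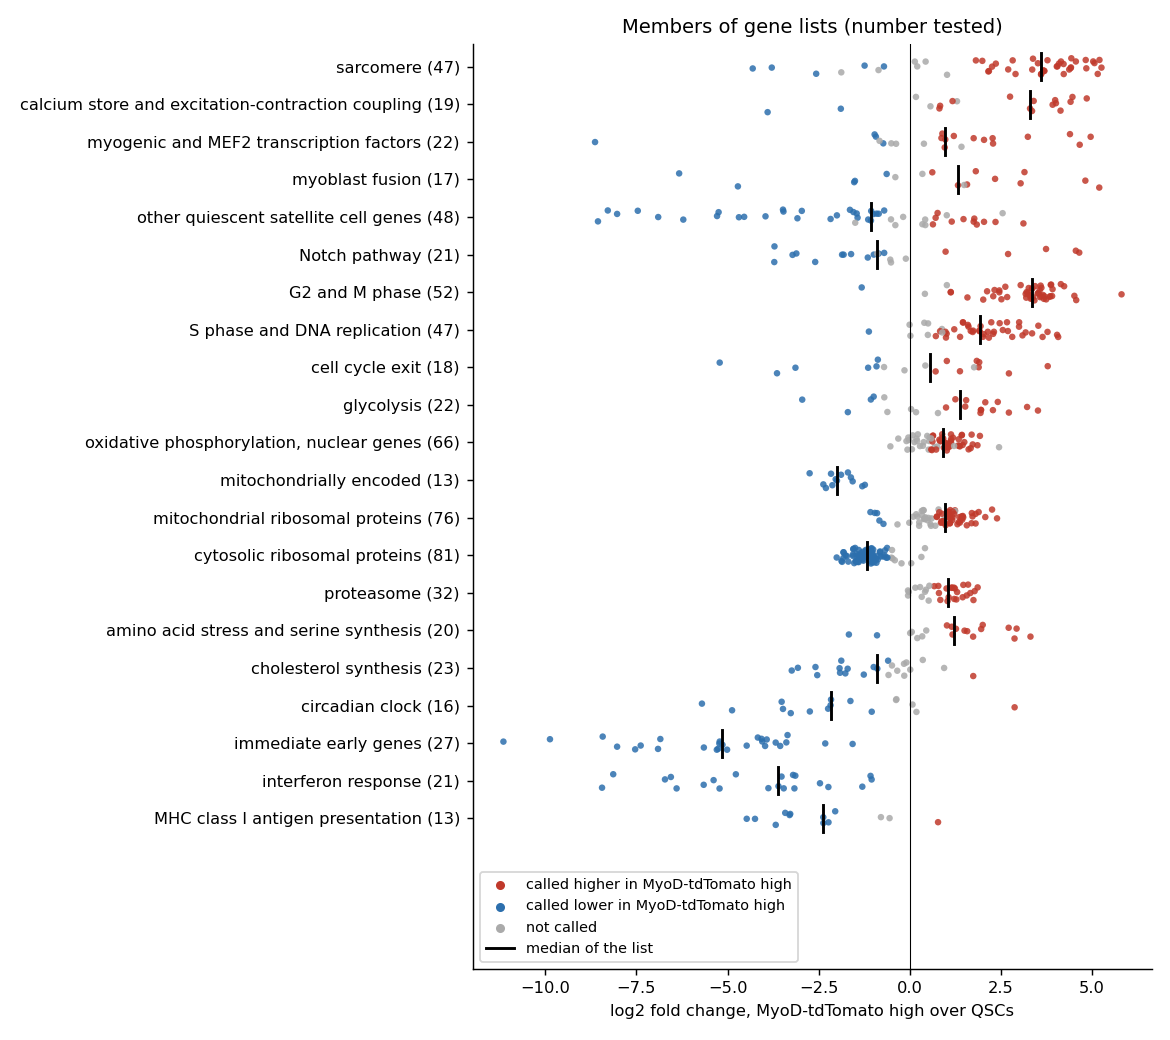
Log2 fold change (MyoD-tdTomato high over QSCs) of every tested member of 21 gene lists, with the number tested in brackets. Red points were called higher, blue points lower, grey points were not called, and the black bar is the median of the list. The members of the G2 and M phase list lie to the right of 0 except *Pttg1*, and all members of the immediate early, interferon and mitochondrially encoded lists lie to the left.

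Energy metabolism moved in opposite directions in the 2 genomes of the cell. Of 66 tested nuclear genes of oxidative phosphorylation, 42 were called higher and 0 lower (median 0.90), while all 13 mitochondrially encoded genes were lower. *Atp5b*, the beta subunit of ATP synthase, was at 2447, 2173 and 2347 CPM in MyoD-tdTomato high, against 872, 842 and 872 CPM in QSCs (log2 fold change 1.43, SE 0.10, edgeR adjusted p = 5.53e-07). *mt-Co1*, a subunit of cytochrome oxidase encoded in mitochondrial DNA, was at 13674, 11291 and 12373 CPM in MyoD-tdTomato high, against 45927, 32988 and 59156 CPM in QSCs (log2 fold change -1.89, SE 0.20, edgeR adjusted p = 1.57e-05). Their share of all counts was 4.44% to 4.95% in MyoD-tdTomato high and 13.6%, 11.4% and 19.004% in QSCs libraries. Leaving them out of the scaling changed the counts of called genes little, to 3106 higher and 3320 lower.

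Most glycolysis genes rose, 13 of 22 higher and 4 lower (median 1.39), beside 24.6% and 26.4% of all tested genes. *Pkm*, pyruvate kinase, was at 4328, 4632 and 4259 CPM in MyoD-tdTomato high, against 873, 919.7 and 927 CPM in QSCs (log2 fold change 2.28, SE 0.10, edgeR adjusted p = 3.88e-08). *Eno1*, enolase, was at 2399, 2579 and 2515 CPM in MyoD-tdTomato high, against 350.4, 401 and 388 CPM in QSCs (log2 fold change 2.72, SE 0.11, edgeR adjusted p = 1.78e-08). *Pgk1* was at 985, 895 and 953 CPM in MyoD-tdTomato high, against 188, 236 and 250.4 CPM in QSCs. The members that fell were *Hk2*, hexokinase 2 of the first step, at 26.7, 30.6 and 29.5 CPM in MyoD-tdTomato high, against 273, 182 and 215 CPM in QSCs (log2 fold change -2.95, SE 0.15, edgeR adjusted p = 8.73e-08), *Slc16a3*, a lactate exporter (log2 fold change -1.70), *Slc2a1*, a glucose transporter (log2 fold change -1.07), and *Pfkp*, a phosphofructokinase (log2 fold change -0.99). The last 2 were not called on log2(TPM + 1). *Pdk4*, which holds pyruvate back from mitochondria, fell, at 85.6, 92.7 and 87.6 CPM in MyoD-tdTomato high, against 355, 242 and 279.7 CPM in QSCs (log2 fold change -1.72, SE 0.14, edgeR adjusted p = 1.7e-06).

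The direction of protein synthesis genes depended on the scaling. On the counts, 73 of 81 cytosolic ribosomal protein genes were lower and 0 higher (median -1.17), against 32 lower and 3 higher on log2(TPM + 1). *Rps4x* was lower on both, at 981, 959.6 and 1029 CPM in MyoD-tdTomato high, against 3709, 2843 and 3916 CPM in QSCs (log2 fold change -1.82, SE 0.13, edgeR adjusted p = 9.21e-07). Many ribosomal protein genes have processed pseudogenes that can take reads. The 76 mitochondrial ribosomal protein genes ran the other way, 46 higher and 5 lower. Ribosome biogenesis genes showed no shared direction on the counts (5 higher and 6 lower of 34), with *Bop1* higher (187, 184 and 182 CPM in MyoD-tdTomato high, against 58.6, 27.1 and 48 CPM in QSCs) and *Nop58* lower (125, 153 and 154 CPM in MyoD-tdTomato high, against 622, 534 and 583 CPM in QSCs), and 19 higher and 2 lower on log2(TPM + 1).

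Of 32 proteasome genes, 22 were higher and 0 lower (median 1.05). *Psmd2* of the regulatory cap was at 537, 517 and 527 CPM in MyoD-tdTomato high, against 149, 156 and 130.1 CPM in QSCs (log2 fold change 1.86, SE 0.10, edgeR adjusted p = 1.08e-07). Of 20 tested genes of amino acid stress and serine synthesis, 13 were called higher and 2 lower in MyoD-tdTomato high cells (median 1.22). *Phgdh*, the first enzyme of serine synthesis, was at 278, 311 and 298 CPM in MyoD-tdTomato high, against 24.8, 54.8 and 42.5 CPM in QSCs (log2 fold change 2.87, SE 0.23, edgeR adjusted p = 1.67e-06). *Gars*, glycyl-tRNA synthetase, was at 364, 303 and 337 CPM in MyoD-tdTomato high, against 110.4, 104 and 87.2 CPM in QSCs. *Aars*, alanyl-tRNA synthetase, was not called, at 382, 352 and 373 CPM in MyoD-tdTomato high, against 276, 231 and 301 CPM in QSCs. *Atf4*, the transcription factor of the amino acid response, was itself lower, at 333, 300.4 and 325 CPM in MyoD-tdTomato high, against 1069.8, 914 and 1068 CPM in QSCs (log2 fold change -1.67, SE 0.10, edgeR adjusted p = 2.23e-07).

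On the counts, cholesterol synthesis genes fell in 13 of 23 and rose in 1 (median -0.89), beside 26.4% and 24.6% of all tested genes. On log2(TPM + 1) 9 were lower and 3 higher (median -0.23), so the lean towards falls was weaker there. *Insig1*, which retains the sterol sensor in the endoplasmic reticulum, was at 27.4, 39.1 and 33.4 CPM in MyoD-tdTomato high, against 318, 264 and 361 CPM in QSCs (log2 fold change -3.24, SE 0.17, edgeR adjusted p = 9.51e-08). *Idi1* was at 41.7, 42.6 and 44.9 CPM in MyoD-tdTomato high, against 262, 204 and 310.2 CPM in QSCs. *Mvd* was the 1 member that rose on the counts, at 26.3, 21.7 and 25.7 CPM in MyoD-tdTomato high, against 7.63, 4.81 and 9.29 CPM in QSCs. 

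Circadian clock genes were lower in 11 of 16 and higher in 1 (median -2.17), beside 26.4% and 24.6% of all tested genes. *Nr1d1*, the repressor REV-ERB alpha, was at 16.3, 18.3 and 14.9 CPM in MyoD-tdTomato high, against 197, 161 and 208 CPM in QSCs (log2 fold change -3.52, SE 0.17, edgeR adjusted p = 5.15e-08). *Per1* was at 66.2, 57.9 and 58.3 CPM in MyoD-tdTomato high, against 344, 231 and 247 CPM in QSCs (log2 fold change -2.17, SE 0.18, edgeR adjusted p = 2.04e-06). The paired repressors *Bhlhe40* and *Bhlhe41* moved apart: *Bhlhe40* was at 12.7, 13 and 12.5 CPM in MyoD-tdTomato high, against 479, 333 and 311 CPM in QSCs (log2 fold change -4.88, SE 0.18, edgeR adjusted p = 1.17e-08). *Bhlhe41* was at 102, 105 and 101 CPM in MyoD-tdTomato high, against 17.5, 10.4 and 13.4 CPM in QSCs (log2 fold change 2.88, SE 0.17, edgeR adjusted p = 2.01e-07). *Clock* was at 93.9, 84.7 and 89.7 CPM in MyoD-tdTomato high, against 83.2, 76.4 and 76.8 CPM in QSCs and was called on log2(TPM + 1) only, as higher. The time of day at isolation and at harvest is not given in the sources used here. Among FoxO targets, *Irs2*, an insulin receptor substrate, fell, at 24.3, 18.5 and 20.1 CPM in MyoD-tdTomato high, against 363, 233 and 333 CPM in QSCs (log2 fold change -3.88, SE 0.20, edgeR adjusted p = 8.69e-08), and so did *Gabarapl1* of autophagy (log2 fold change -3.06), while *Trim63*, or MuRF1, a ubiquitin ligase of differentiated muscle, rose, at 36.6, 17.3 and 29.3 CPM in MyoD-tdTomato high, against 1.43, 5.4 and 2.07 CPM in QSCs (log2 fold change 3.31, SE 0.59, edgeR adjusted p = 0.000566).

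Of 33 tested growth factors and secreted ligands, 8 were called higher and 14 lower in MyoD-tdTomato high cells, beside 24.6% and 26.4% of all tested genes. On log2(TPM + 1) 12 were higher and 12 lower, so the list had no shared direction there. *Igf2*, an imprinted growth factor that myoblasts release as they differentiate, was at 3229, 1999 and 2771 CPM in MyoD-tdTomato high, against 301, 362 and 302 CPM in QSCs (log2 fold change 3.05, SE 0.28, edgeR adjusted p = 4.1e-06). *Csf1* was at 439, 666 and 511 CPM in MyoD-tdTomato high, against 101, 123 and 103 CPM in QSCs (log2 fold change 2.31, SE 0.17, edgeR adjusted p = 8.64e-07). *Bmp4* was at 0.625, 0.28 and 0.353 CPM in MyoD-tdTomato high, against 171, 168 and 136 CPM in QSCs (log2 fold change -8.56, SE 0.26, edgeR adjusted p = 4.75e-09). *Bmp6* was at 1.88, 0.56 and 1.26 CPM in MyoD-tdTomato high, against 256, 192 and 199 CPM in QSCs (log2 fold change -7.46, SE 0.49, edgeR adjusted p = 4.05e-07), so that both were near 0 in culture. *Mest*, another imprinted gene of growth, rose, at 540.2, 509.8 and 706 CPM in MyoD-tdTomato high, against 49.8, 123 and 91.9 CPM in QSCs (log2 fold change 2.74, SE 0.32, edgeR adjusted p = 2.91e-05). *Sct*, which encodes the hormone secretin, was next after *Kif4* among the tested genes named here, at 266, 233 and 290.0 CPM in MyoD-tdTomato high, against 3.54, 11.4 and 4.98 CPM in QSCs (log2 fold change 5.41, SE 0.35, edgeR adjusted p = 3.71e-07).

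Matrix genes were mixed, with 10 of 37 higher and 17 lower on the counts, beside 24.6% and 26.4% of all tested genes. On log2(TPM + 1) 12 were higher and 11 lower. *Tnxb*, tenascin-X, was at 0.156, 0.42 and 0.314 CPM in MyoD-tdTomato high, against 649.8, 539.9 and 506 CPM in QSCs (log2 fold change -10.85, SE 0.38, edgeR adjusted p = 9.53e-09). *Col15a1* was at 0.156, 0.035 and 0.314 CPM in MyoD-tdTomato high, against 206, 216 and 139 CPM in QSCs (log2 fold change -10.11, SE 0.39, edgeR adjusted p = 1.46e-08). *Col6a1* was at 95.9, 51.7 and 51.1 CPM in MyoD-tdTomato high, against 453, 374 and 378 CPM in QSCs (log2 fold change -2.60, SE 0.36, edgeR adjusted p = 9.53e-05). *Col5a2* rose, at 573, 575 and 581 CPM in MyoD-tdTomato high, against 208, 249.8 and 224 CPM in QSCs (log2 fold change 1.34, SE 0.11, edgeR adjusted p = 1.4e-06), as did *Col18a1*, at 266, 449 and 364 CPM in MyoD-tdTomato high, against 77.6, 108 and 79.9 CPM in QSCs (log2 fold change 2.03, SE 0.20, edgeR adjusted p = 6.48e-06). In the cytoskeleton list, 21 of 32 were higher and 4 lower. *Tuba1b*, an alpha tubulin, was at 2624, 2157 and 2389 CPM in MyoD-tdTomato high, against 433, 475 and 409.6 CPM in QSCs (log2 fold change 2.44, SE 0.12, edgeR adjusted p = 4.87e-08). *Vim*, vimentin, was at 3850.3, 4629 and 4113 CPM in MyoD-tdTomato high, against 1524, 1786 and 1701 CPM in QSCs (log2 fold change 1.33, SE 0.12, edgeR adjusted p = 4.29e-06). *Tagln2* fell, at 140.5, 226 and 171 CPM in MyoD-tdTomato high, against 708, 654 and 694 CPM in QSCs (log2 fold change -1.94, SE 0.16, edgeR adjusted p = 1.87e-06).

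For the remaining lists, called genes numbered 8 higher and 4 lower of 24 for fatty acid use, 6 higher and 7 lower of 21 for antioxidants, 6 higher and 9 lower of 27 for translation factors, 2 higher and 4 lower of 22 for histones and 6 higher and 3 lower of 15 for growth-associated regulators. They numbered 2 higher and 7 lower of 18 for ion channels, 1 higher and 7 lower of 16 for the p38 kinase pathway and 3 higher and 10 lower of 18 for FoxO targets. On log2(TPM + 1) the counts were 13 higher and 4 lower for translation factors, 14 higher and 4 lower for fatty acid use and 12 higher and 7 lower for antioxidants. There, ion channels had 6 higher and 4 lower, FoxO targets 6 higher and 7 lower and the p38 pathway 4 higher and 5 lower. Histones had 3 higher and 3 lower, and growth-associated regulators 7 higher and 1 lower. The balance thus turned for translation factors, antioxidants and ion channels, and the lean of FoxO targets towards falls depended on the scaling. Of lists taken from the study, activation and differentiation genes gave 6 higher and 1 lower of 9 and tube morphogenesis and matrix genes 4 higher and 0 lower of 11. Beside these, 24.6% of all tested genes were higher and 26.4% lower.

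Hox genes, which set position along the body and limb, were called in 27.3% of 22 tested, under the 51.1% of all genes. Of these, 4 were higher, all of paralogue groups 10 and 11. Without QSCs replicate 2, 8 of 24 were higher and 2 lower. *Hoxa10* was at 24.9, 34.8 and 32.6 CPM in MyoD-tdTomato high, against 5.52, 15.5 and 8.8 CPM in QSCs (log2 fold change 1.67, SE 0.32, edgeR adjusted p = 0.00082), *Hoxa11* at 19.6, 28.8 and 21.9 CPM in MyoD-tdTomato high, against 6.13, 13 and 6.22 CPM in QSCs, *Hoxc10* at 49.4, 53.1 and 49.5 CPM in MyoD-tdTomato high, against 30.7, 27.9 and 29 CPM in QSCs and *Hoxc11* at 22.6, 28.2 and 24.4 CPM in MyoD-tdTomato high, against 14.9, 9.19 and 10.8 CPM in QSCs. The 2 called lower were *Hoxb3* and *Hoxb4*, both low, the second at 0.156, 0.0699 and 0.118 CPM in MyoD-tdTomato high, against 3.75, 4.52 and 3.82 CPM in QSCs (log2 fold change -5.07, SE 0.62, edgeR adjusted p = 3.54e-05). Its level lies under the 95th percentile of single chemosensory receptor genes, given further on, in QSCs replicate 2 (7.44 CPM). In QSCs replicates 1 and 3 it lies above that percentile (1.77 and 2.66 CPM). *Hoxb3* was not called without MyoD-tdTomato high replicate 1 or 3 (edgeR adjusted p = 0.0179 and 0.0175).

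Transcripts that mark other cells of muscle were higher in QSCs. All 14 tested endothelial markers and all 8 fibroblast markers were called lower in MyoD-tdTomato high cells, as were 12 of 13 myeloid and all 6 Schwann cell markers. The 20 endothelial markers in the table summed to 75.1, 110.4 and 91.9 CPM in MyoD-tdTomato high, against 1618, 821 and 947 CPM in QSCs, with 2 of them at 0 in every MyoD-tdTomato high library. The 17 myeloid markers summed to 8.72, 14.4 and 16.8 CPM in MyoD-tdTomato high, against 187, 146 and 126 CPM in QSCs, the 10 Schwann cell markers to 44.6, 41.1 and 39.7 CPM in MyoD-tdTomato high, against 566, 463 and 484 CPM in QSCs and the 13 fibroblast markers to 938, 859 and 803 CPM in MyoD-tdTomato high, against 3757, 3098 and 3019 CPM in QSCs. *Fabp4*, the fatty acid binding protein of capillaries, was at 1.06, 1.26 and 0.628 CPM in MyoD-tdTomato high, against 283, 146 and 234 CPM in QSCs. *Flt1*, the endothelial VEGF receptor, was at 0.195, 0.035 and 0.0393 CPM in MyoD-tdTomato high, against 87.4, 61.2 and 36.2 CPM in QSCs (log2 fold change -9.36, SE 0.53, edgeR adjusted p = 1.45e-07). Smooth muscle and pericyte markers were split, *Rgs5* lower (5.86, 4.65 and 5.81 CPM in MyoD-tdTomato high, against 283, 159.7 and 176 CPM in QSCs) and *Acta2*, also an actin of cultured myoblasts, higher (2245, 1136 and 1849 CPM in MyoD-tdTomato high, against 361, 440.3 and 424 CPM in QSCs). Of the tenocyte markers, *Fmod* and *Thbs4* fell (log2 fold changes -7.88 and -8.78) and *Scx*, scleraxis, rose, at 127, 134 and 128 CPM in MyoD-tdTomato high, against 8.11, 21 and 14.2 CPM in QSCs (log2 fold change 3.21, SE 0.27, edgeR adjusted p = 2.11e-06). Red cell genes were near 0 in MyoD-tdTomato high cells: the 7 erythroid genes summed to 0.0782, 0 and 0.353 CPM in MyoD-tdTomato high, against 388, 360.2 and 1105 CPM in QSCs. How much of each fall in the lists above comes from these other cells was not tested.

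**Figure D4:**
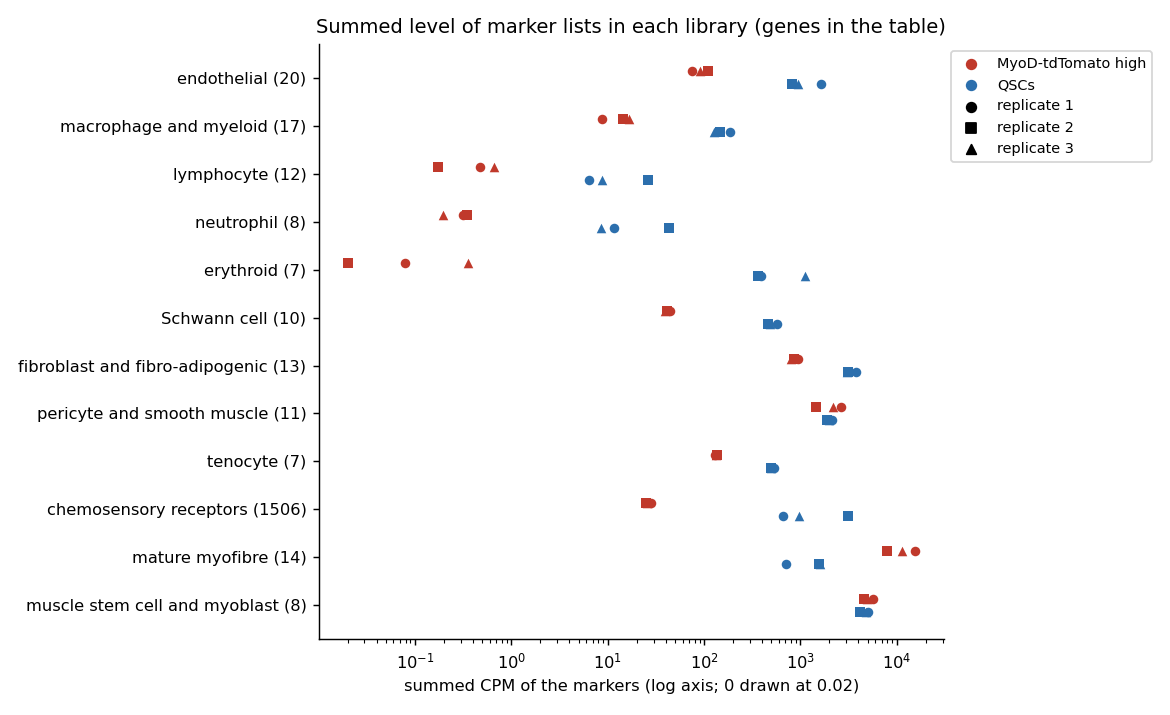
Summed CPM (log axis) of marker lists in each library, with the number of genes of each list in the table in brackets; red is MyoD-tdTomato high, blue is QSCs, the shape of a point gives the replicate, and 0 is drawn at 0.02. The blue points lie to the right for endothelial, myeloid, lymphocyte, neutrophil, erythroid, Schwann, fibroblast, tenocyte and chemosensory genes, to the left for mature myofibre genes, and among the red ones for pericyte genes and genes of muscle stem cells and myoblasts.

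Genes that neither group should express gave a floor for these values. Receptors for odours, pheromones and tastes (1506 genes) summed to 26.2 to 28.4 counts per 1000000 of the library total in MyoD-tdTomato high, and 539, 2875 and 745 in QSCs replicates 1, 2 and 3. The 95th percentile of single receptor genes in QSCs reached 7.44 CPM, in replicate 2, and was 1.77 and 2.66 CPM in replicates 1 and 3. Of the 3333 genes called lower, 561 (16.8%) had a mean in QSCs at or under that level. With a mean of at least 10 CPM asked of the higher group, 3017 genes were higher and 2600 lower. The predicted genes *Gm10800* and Gm10801 together took 0.61%, 3.29% and 0.34% of the counts of QSCs replicates 1, 2 and 3, and *Gm10800* was at 2.5, 1.26 and 1.77 CPM in MyoD-tdTomato high, against 6032, 29130.2 and 3634 CPM in QSCs, where the QSCs SD (14079) exceeds the spread of any other gene named here. Y-linked genes set MyoD-tdTomato high replicate 1 apart: *Ddx3y* was at 6.92, 35.6 and 39.2 CPM in MyoD-tdTomato high, against 181, 152 and 183 CPM in QSCs. *Eif2s3y* was at 5.71, 33.1 and 37.5 CPM in MyoD-tdTomato high, against 25.3, 31.6 and 43.2 CPM in QSCs. *Ddx3y* was called lower but lost its call without any one of the 6 libraries, *Eif2s3y* was not called, and without MyoD-tdTomato high replicate 1 the sign of its difference turned (0.08). What sets MyoD-tdTomato high replicate 1 apart in these genes was not tested, and sex and group cannot be told apart for them.

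**Figure D5:**
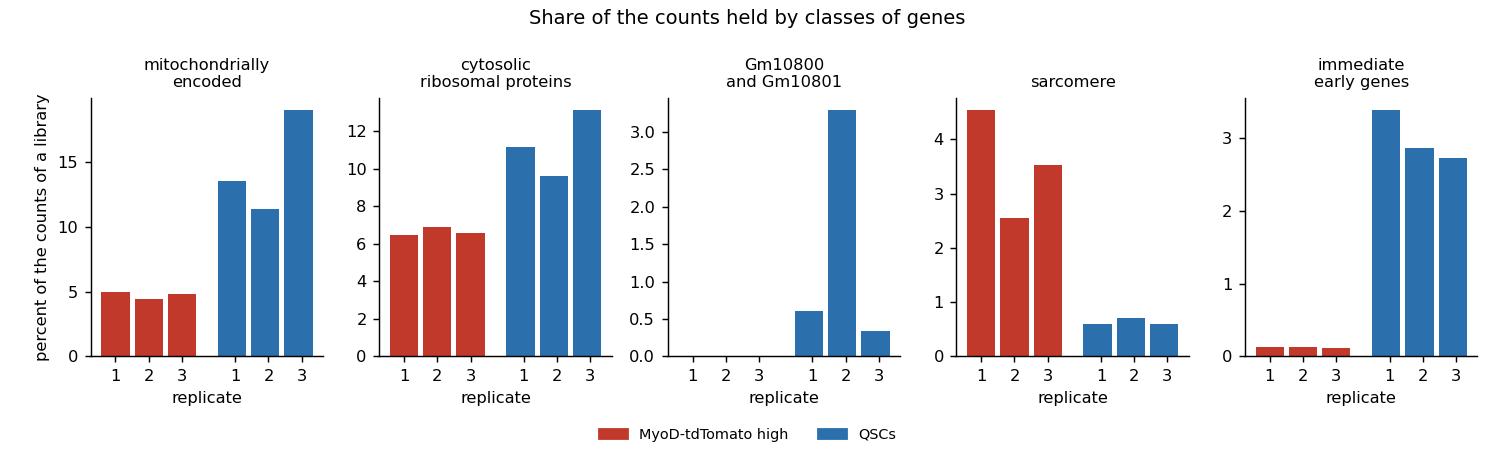
Share of each library's counts (percent, linear axes from 0) held by 5 classes of genes, MyoD-tdTomato high replicates 1 to 3 in red on the left and QSCs replicates 1 to 3 in blue on the right of each panel. Sarcomere genes take the larger share in MyoD-tdTomato high libraries and the other 4 classes in QSCs, and the Gm10800 and Gm10801 bar of QSCs replicate 2, at 3.29%, is the tallest of its panel.

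The filter on zeros, taken from the study's methods, removed every gene with a count of 0 in any of the 9 libraries. Genes that were on in one group alone are among them, and 5265 genes had no count in any of the 6 libraries compared. Of 13041 genes left out, 2082 could be tested under edgeR's filterByExpr, and 123 of these were higher and 1062 lower. Of them, 38 of the higher and 133 of the lower had a mean of at least 10 CPM in the higher group. The genes in the next sentences were named after their values were seen. *Chodl*, chondrolectin, known from quiescent MuSCs, was at 0.313, 0.14 and 0 CPM in MyoD-tdTomato high libraries, against 734, 659 and 602 CPM in QSCs, or 12 counts over the 3 MyoD-tdTomato high libraries. *Dcn* and *Dpt*, matrix genes of fibroblasts, were at 0.234, 0 and 0.236 CPM in MyoD-tdTomato high, against 378, 382 and 317 CPM in QSCs, and 0, 0.0699 and 0 CPM in MyoD-tdTomato high, against 391, 371 and 356 CPM in QSCs. *Il6*, the cytokine, was at 0, 0 and 0.0785 CPM in MyoD-tdTomato high, against 105, 53.7 and 50.6 CPM in QSCs. *Edn3*, an endothelin, was at 1.72, 0.979 and 2.36 CPM in MyoD-tdTomato high, against 134, 100.3 and 100.5 CPM in QSCs, and was left out for a 0 in a MyoD-tdTomato low library. In the other direction *Sync*, or syncoilin, an intermediate filament protein of muscle, was at 89.1, 66.8 and 74.8 CPM in MyoD-tdTomato high, against 7.63, 0 and 6.22 CPM in QSCs. *Kifc5b*, a mitotic kinesin gene, was at 22.1, 22.8 and 18.5 CPM in MyoD-tdTomato high, against 0.409, 0.292 and 0 CPM in QSCs. Each of these passed under filterByExpr.

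Under a stricter reading, 45 genes had at least 10 counts in every MyoD-tdTomato high library and none in QSCs, and 231 had at least 10 in every QSCs library and none in MyoD-tdTomato high. Against a floor of 3 counts in each library, *Sost*, the Wnt antagonist sclerostin, was at least 38.4-fold higher in MyoD-tdTomato high cells (11.2, 12 and 11 CPM). *Oip5*, a centromere protein, was at least 17.9-fold higher. In the other direction, *Hbb-bs*, adult beta globin, was at least 1788-fold lower (118, 122 and 368 CPM in QSCs), *Tmem51* at least 643-fold lower and *C3*, the complement component, at least 512-fold lower. Of the 231 genes, 44 were chemosensory receptors and 10 predicted genes, which stand among them although neither group should express receptors of smell.

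Genes also differed by properties that the test did not use. Of the 12614 genes 12600 had a GENCODE M21 transcript model, and these were cut into 5 bins of equal size. The bin of lowest GC content had 14.2% called higher and 31.9% lower (median log2 fold change -0.30), and the bin of highest GC content 32.1% higher and 23.8% lower (median 0.20). The bin with the longest exon length had 19.7% higher and 32.3% lower, and the shortest bin 27.1% higher and 23.3% lower. No test was run on these shares, and whether GC content reflects the biology or the libraries was not tested.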

How the data were processed

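RNA was extracted with TRIzol from 9 libraries of mouse MuSCs (3 MyoD-tdTomato high, 3 QSCs and 3 MyoD-tdTomato low, which entered the model only), poly(A) libraries were made with NEBNext Ultra II and read on a NextSeq 500 as 36-base pairs. Per the study's methods, reads were processed in CLC Genomics Workbench 20.0.3 with default settings, and the submitters' processing notes name the genome build GRCm39. Which annotation release was used, and whether strand was considered, is not given in the sources used here. The authors deposited whole-number counts of reads per gene, not normalized, and TPM, which sum to 1000000 in each library. Also in the deposited table, but not used, are 18 other columns of single samples and 24 that hold fold changes and p-values of the authors' own comparisons.

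Genes with a count of 0 in any of the 9 libraries were left out, as in the study. The remaining counts were fitted with edgeR 4.0.16 (R 4.3.3, TMM, robust quasi-likelihood, 1 coefficient per group, Benjamini-Hochberg adjustment over all 12614 genes). TPM was tested with limma 3.58.1 on log2(TPM + 1), which understates the change of low genes, and with exact permutation tests. The fit was tested on simulated data with 12555 genes, of which 100 were changed 2-fold and 100 changed 4-fold. Of these, 25% and 76% were called. Far fewer genes changed there than the 6440 called in the data, and its means were pooled over all 9 libraries. These shares therefore do not give the share of changes found in the real comparison. Genes were named by a rule: the 15 largest rises and falls with at least 10 CPM in the higher group and no overlap, up to 4 called members of each list in each direction, up to 2 members not called, genes the study names, and the 10 highest by TPM or left out by the zero filter. Named genes outside that rule are marked in the text. The members and the 52 gene lists were chosen with earlier results of these data known. Lists are described by counts and medians, with no list test. Figures were drawn with matplotlib 3.10.9.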

Additional observations from a re-analysis of the deposited data

How the results depend on the processing

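The number of called genes (3107 higher, 3333 lower) stayed within 1.5 times under every alternative on counts that was run: other size factors, scaling without mitochondrially encoded genes, DESeq2 1.42.0, other filters, a fit of the 2 groups alone, other thresholds, at least 10 CPM in the higher group (chosen after seeing the data), and each replicate left out. Leaving out 1 replicate gave 2753 to 3396 genes higher and 2764 to 3507 lower, or 5517 to 6903 in all. Upper-quartile scaling moved the median over all tested genes to -0.12 (2826 higher, 3566 lower), and no filter moved it to -0.70 (3727 higher, 3694 lower). On log2(TPM + 1), 5750 genes were higher and 1799 lower, and on log2(TPM + 0.1), 5701 and 1847. The log2 difference between groups is larger by 0.66 on TPM for every gene, but these fits also change the test, and how much of the move each accounts for was not tested. No gene was called in opposite directions under any of these alternatives.

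Of 153 named genes tested, 143 were called, and 133 of these kept direction and call under every alternative. Those that did not were Chrnb1, Id3, Notch1, Notch2, Pfkp, Slbp and Slc2a1, which lost the call on TPM, Hoxb3, Agrn, which lost it on TPM, under other filters, with the replicate block and without any library but QSCs replicate 2, and Ddx3y, whose adjusted p in edgeR ran between 0.0110 and 0.0169 when each of the 6 libraries was left out in turn. Without QSCs replicate 2 or without MyoD-tdTomato high replicate 1, all 27 immediate early and all 21 interferon response genes were still lower, and 50 or 49 of the G2 and M phase genes and 35 or 34 of the sarcomere genes higher. Genes not called changed sign as follows. Cdh15 was at 0.26 on both TPM scales, Col5a1 at 0.040 on log2(TPM + 1) and 0.041 on log2(TPM + 0.1) and Myf5 at 0.28 on both. Pcna was at -0.078 under upper-quartile scaling and between -0.076 and 0.13 without single replicates, and Eif2s3y between -0.77 and 0.084, the last without MyoD-tdTomato high replicate 1. The cause of these shifts was not tested.

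With the replicate number as a block, 6294 genes were called, 3115 higher and 3179 lower, of which 3032 and 3133 were also called without the block. Deviations of libraries with the same number correlated at 0.013, 0.0043 and -0.0040, so the numbers do not pair the libraries. The 10 most abundant genes took 5.95% to 6.47% of counts in MyoD-tdTomato high and 14.4% to 19.7% in QSCs. Promoter shares over all called genes, with the alternative of a 4-fold change, are void because only 75.7% of genes called lower had a promoter in the table. QSCs replicate 2, at 7514633 counts, limits what can be said of genes with low levels.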
